A study of Homo sapiens with 16 samples.

Results

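The 10 genes described here act in origin licensing, DNA unwinding and synthesis, nucleotide supply, histone deposition and entry into S phase: CCNE2, CDC25A, ORC1, GINS2, MCM6, POLA2, RRM1, E2F2, ASF1B and FAM111B. They were read by 14 probe sets annotated to 1 of these genes alone, out of 5250 genes that the probe sets of the table name singly. All 10 were measured. They were chosen by name with their lower values under ICG-001 already known, so that difference is given as a description, without a test. The knockdown arrays are a separate set of cells, and the tests of these genes are made there. Whether the choice of genes also drew on the knockdown values is not known, so those tests may not be free of selection.

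The cells were AsPC-1, a human pancreatic adenocarcinoma line, in RPMI with 10% fetal calf serum. One experiment exposed them to ICG-001 at 10 µM or to its vehicle DMSO and sampled them after 6 h and after 24 h, which makes 4 groups of 3 arrays. ICG-001 is known as a ligand of the coactivator CBP that blocks its contact with β-catenin. In a separate experiment they were transfected by lipofection with 20 nM control siRNA or 20 nM CTNNB1 siRNA, aimed at the β-catenin gene, and read at 48 h, with 2 arrays in each group. Every group is described as this same line, treated in culture, and the identity of the cells was not tested. No group of untreated cells was analysed here.

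Before S phase the origin recognition complex, with ORC1 as its largest subunit, marks origins and loads the MCM helicase, of which MCM6 is a subunit. Cyclin E with CDK2 then starts S phase, CDC25A removes the phosphates that hold CDK2 back, and the GINS complex joins the helicase at the fork. Many of these genes are transcribed under E2F factors, which RB family proteins hold back until cyclin-dependent kinases act. POLA2 belongs to the polymerase that lays primers, RRM1 to the reductase that makes deoxynucleotides, and ASF1B hands histones to new DNA. FAM111B encodes a nuclear protease whose paralog FAM111A acts at forks.

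Promoter sequences are shown because these genes moved together in the drug experiment and E2F sites are a known common feature of replication genes. RefSeq promoters of build GRCh38.p14 were at hand for 8 of the 10 genes, CCNE2 and FAM111B being the others. In the 250 bases before the transcript start, 1 of the letter strings TTTCCCGC, TTTGGCGC, TTTCGCGC and TTTGCCGC, on either strand, was found in 5 of the 8, against 2.79% of 35116 RefSeq promoter entries and 3.15% of the 5934 entries of the other measured genes. The match began 44 bases before the start in CDC25A, 31 in GINS2, 53 in POLA2 and 42 in E2F2. MCM6 held 2 pairs of overlapping matches on opposite strands, the outer ones beginning 152 and 90 bases before the start. ORC1, RRM1 and ASF1B had no match to these letters in this window. The last 180 bases before the start follow for the 5 genes with a match, 5′ to 3′ on the gene's strand with the matches in capitals. They lie at chr3:48188418-48188597 (minus strand), chr16:85688955-85689134 (minus), chr2:135876444-135876623 (minus), chr11:65261782-65261961 (plus) and chr1:23531234-23531413 (minus).
CDC25A: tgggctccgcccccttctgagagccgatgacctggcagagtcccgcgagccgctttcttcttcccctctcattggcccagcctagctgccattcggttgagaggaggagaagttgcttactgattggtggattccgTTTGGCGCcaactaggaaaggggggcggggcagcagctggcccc
GINS2: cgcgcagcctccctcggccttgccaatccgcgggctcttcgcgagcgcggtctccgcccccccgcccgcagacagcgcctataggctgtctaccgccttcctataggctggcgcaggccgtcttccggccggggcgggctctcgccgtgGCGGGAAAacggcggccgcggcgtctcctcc
MCM6: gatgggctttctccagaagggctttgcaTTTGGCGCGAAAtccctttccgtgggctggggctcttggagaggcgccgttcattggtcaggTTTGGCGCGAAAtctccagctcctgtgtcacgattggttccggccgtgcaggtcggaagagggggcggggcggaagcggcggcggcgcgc
POLA2: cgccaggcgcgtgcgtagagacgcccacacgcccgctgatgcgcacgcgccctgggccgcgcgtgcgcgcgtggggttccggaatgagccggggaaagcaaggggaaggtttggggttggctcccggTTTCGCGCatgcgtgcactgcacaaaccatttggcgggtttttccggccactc
E2F2: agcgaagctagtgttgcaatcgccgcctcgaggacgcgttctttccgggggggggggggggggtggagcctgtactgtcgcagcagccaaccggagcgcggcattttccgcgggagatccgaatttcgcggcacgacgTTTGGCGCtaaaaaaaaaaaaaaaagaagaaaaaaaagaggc

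Other known promoter elements were counted in the same windows. The CCAAT box, as CCAAT or its complement ATTGG, stood in 6 of 8 against 32.2% of the entries of the other measured genes. The GC box GGGCGG, on either strand, stood in 6 of 8 against 49.9%, and TTTGAA or TTCGAA, the cell cycle homology element, on either strand in 3 of 8 against 13.5%. The E-box CACGTG stood in 0 of 8 against 6.4%. A match describes letters, not bound sites.

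**Figure D1:**
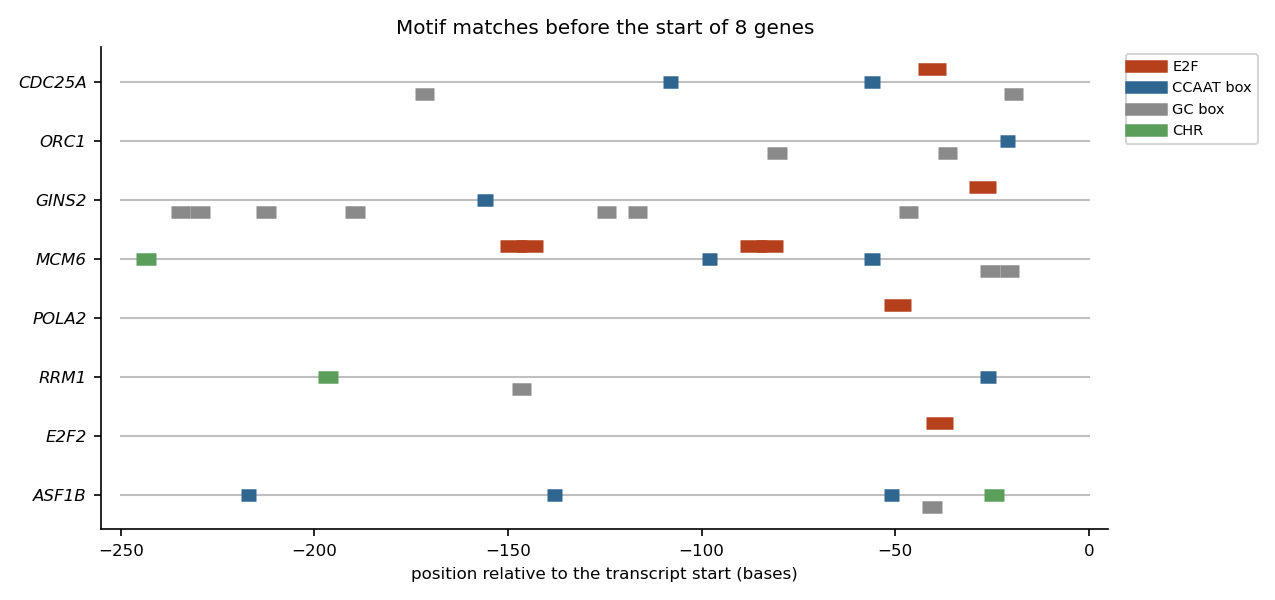
Positions of E2F, CCAAT, GC box and cell cycle homology (CHR) matches in the 250 bases before the transcript start (x axis, bases) of the 8 genes with a RefSeq promoter (rows). The E2F matches of CDC25A, GINS2, POLA2 and E2F2 begin 31 to 53 bases before the start, and MCM6 holds 2 pairs farther out.

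The table held 9554 probe sets, and the smallest coefficient of variation among them was 0.4, so only varying probe sets are covered. Median intensity was 20.6 to 28.6 on the 12 drug experiment arrays and 12.7 to 13 on the 4 siRNA arrays. In the drug experiment the mean intensity of an array went with treatment, at 164 to 179 with ICG-001 and 132 to 137 with DMSO. The medians there were 20.6 to 28.6 and 20.9 to 21.6. Values were quantile normalized over all 16 arrays after adding 16 and taking log2. That step changed the counts over all genes: falls and rises numbered 432 and 292 at 6 h after it, against 244 and 406 in the deposited scaling. At 24 h the median log2 change over all genes was -0.02 after it and 0.09 in the deposited scaling. Of 15 epithelial carcinoma markers 5 were measured, and 0 acinar or islet markers were. The summed intensity of the 5 was 511 to 4330 across arrays, with a median of 3490. Single markers also ran low on some arrays, as CDH1 did at 8.68 to 371 (median 304) and KRT7 at 80.2 to 1590 (median 1240). Which arrays were low is not given here. Measured fibroblast (4 genes), endothelial (2) and leukocyte (2) markers summed to 129 to 218, 5.41 to 30.6 and 37.5 to 68.7. Precision is limited by how few arrays each group has, and p-values measure the spread between arrays called biological replicates in the labels.

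ICG-001 cells carried less RNA of most of these genes already at 6 h, and far less at 24 h. At 6 h all 3 drug arrays lay below all 3 vehicle arrays in deposited intensity for 9 of 10 genes, with RRM1 as the gene that overlapped. They did so for 11.4% of all genes. At 24 h the same held for 9 of 10, with E2F2 overlapping, and for 11.7% of all genes. The median log2 change of the 10 was -1.01 at 6 h (-0.66 in the deposited scaling) and -2.06 at 24 h (-1.81), beside -0.02 over all 5250 genes at both times. By limma at an adjusted p under 0.05, 8 of 10 were lower at 6 h, where 8.23% of all genes fell, and 9 of 10 at 24 h, where 11.3% fell. Nothing is read from these counts, since the genes were chosen with this contrast known. In bulk RNA a smaller share of cells in S phase and less RNA per cell cannot be told apart.

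**Figure D2:**
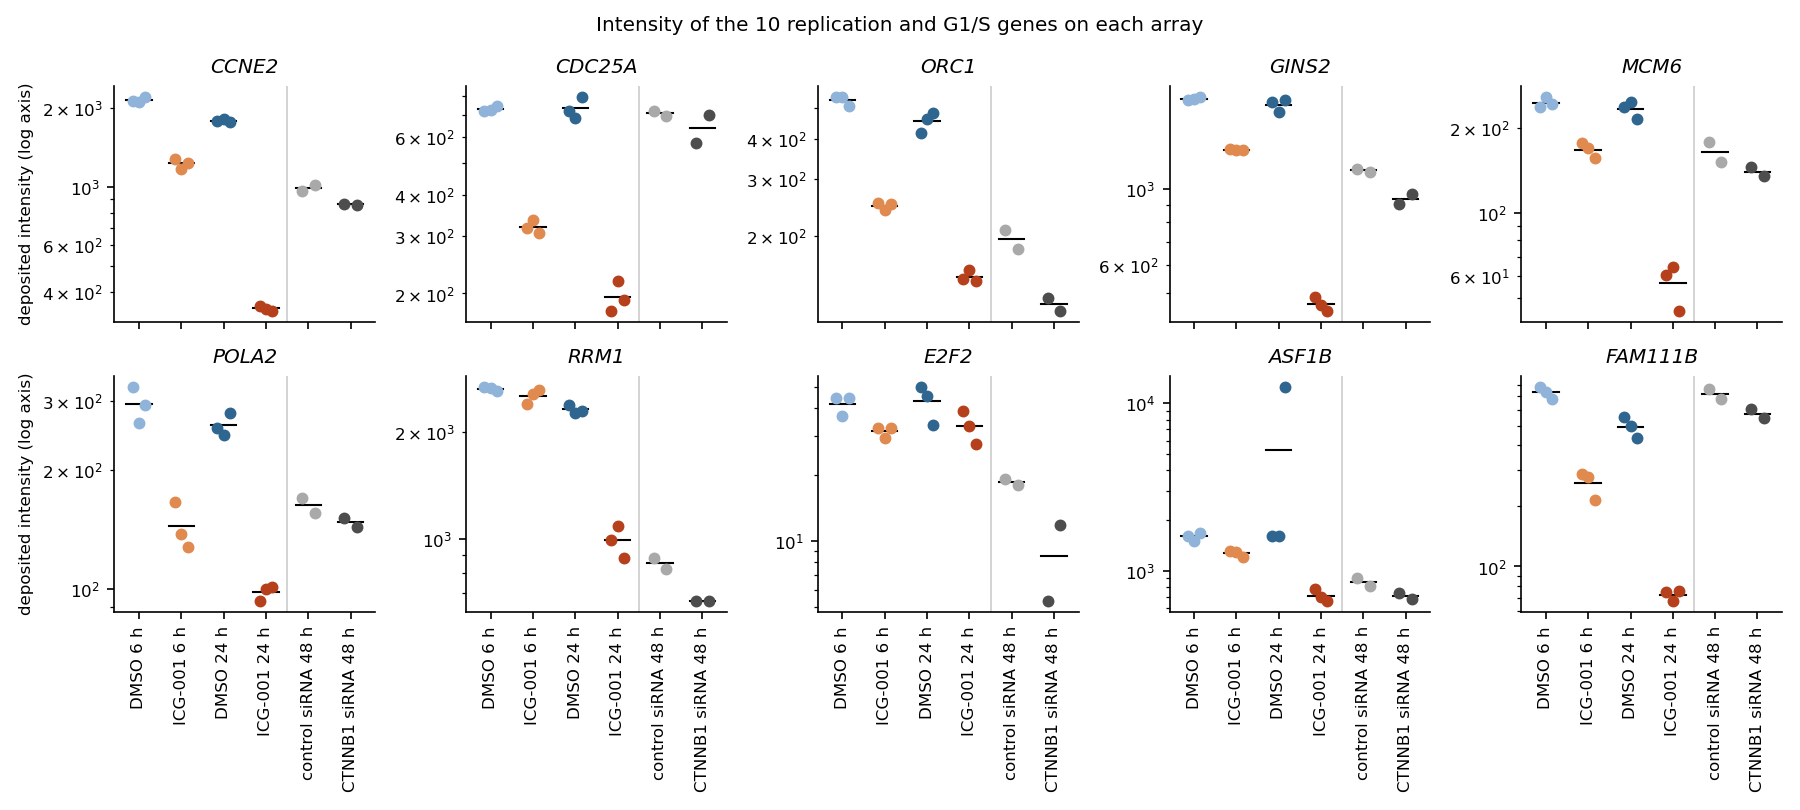
Deposited intensity (log axis, separate for each gene) of the 10 genes on each array, by group; points are arrays and bars are group means, and the grey line parts the drug experiment from the siRNA experiment. All 3 arrays with ICG-001 at 24 h lie below both DMSO groups for every gene but E2F2, and ASF1B has 1 DMSO array at 12581.

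Among the G1/S drivers, CCNE2, which encodes cyclin E2, read 2133, 2118 and 2209.5 with DMSO at 6 h and 1283, 1177 and 1239.81 with ICG-001. At 24 h it read 1779, 1821 and 1776 with DMSO and 354, 344 and 338 with ICG-001. Both pairs of groups were far apart compared with their spread, and the log2 change was -1.17 ± 0.05 (± SE) at 6 h and -2.72 ± 0.05 at 24 h. A second CCNE2 probe set gave -1.23 ± 0.08 and -2.69 ± 0.08.

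CDC25A, the phosphatase that activates CDKs, read 722, 727 and 749 with DMSO at 6 h against 316, 336 and 305 with ICG-001. At 24 h the values were 719, 688 and 798 against 177, 218 and 191. On this probe set the vehicle arrays were alike at both times, and the drug arrays were lower at the later one. The log2 change was -1.37 ± 0.09 at 6 h and -2.13 ± 0.09 at 24 h, and its dimmer probe set gave -1.41 ± 0.12 and -1.70 ± 0.12.

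E2F2, an activating E2F factor, was dim and overlapped at 24 h. It read 44.8, 37.01 and 44.5 with DMSO at 6 h and 32.5, 29.4 and 32.7 with ICG-001. At 24 h it read 50.2, 45.4 and 33.7 against 38.9, 33.1 and 27.6. The 6 h groups were apart and the 24 h groups were not, and the log2 changes of -0.28 ± 0.17 and -0.35 ± 0.17 were small beside those of the other genes. A second, dimmer probe set gave -0.01 ± 0.27 and -0.33 ± 0.27.

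ORC1, the origin recognition subunit, read 542, 541 and 507 with DMSO at 6 h against 252, 242 and 251 with ICG-001. At 24 h it read 419, 463 and 483 against 147, 157 and 145. The groups were apart at both times, and the log2 change of -1.25 ± 0.08 at 6 h amounted to 70% of the -1.78 ± 0.08 seen at 24 h.

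The helicase genes were lower at 6 h and much lower at 24 h. GINS2 read 1802, 1821 and 1848 with DMSO at 6 h against 1306, 1299 and 1293 with ICG-001, and 1778, 1672 and 1809 against 485, 462 and 443 at 24 h. MCM6 read 238, 259 and 243 against 177, 171 and 156 at 6 h, and 239, 249 and 216 against 60.4, 64.6 and 44.9 at 24 h. The log2 change of GINS2 was -0.89 ± 0.06 at 6 h (-0.48 in the deposited scaling) and -2.29 ± 0.06 at 24 h. That of MCM6 was -0.64 ± 0.10 and -1.99 ± 0.10. The 6 h change was 38.7% of the 24 h change for GINS2 and 32% for MCM6.

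POLA2, the primase-polymerase subunit, read 325, 263 and 292 with DMSO at 6 h against 166, 138 and 128 with ICG-001. At 24 h it read 255, 246 and 278 against 93.4, 100.3 and 101. Its change was largely present at 6 h, with a log2 change of -1.13 ± 0.11 then and -1.48 ± 0.11 at 24 h, so that 76.5% of the later change was reached. FAM111B read 782, 739 and 683 against 289, 278 and 214 at 6 h, and 553, 502 and 433 against 74.3, 67.4 and 75.2 at 24 h. The log2 change was -1.69 ± 0.10 and -2.86 ± 0.10, the farthest from 0 among the 10 genes at each time. Its second probe set gave -1.52 ± 0.10 and -2.14 ± 0.10.

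RRM1, the large subunit of ribonucleotide reductase, was lower mainly at 24 h. It read 2694, 2669 and 2621 with DMSO at 6 h against 2405, 2576 and 2642 with ICG-001, so the deposited values overlapped. At 24 h it read 2398, 2269.88 and 2298 against 993, 1088 and 882. The 6 h log2 change was -0.55 ± 0.06 after quantile normalization but -0.07 ± 0.07 in the deposited scaling, whereas at 24 h it was -1.59 ± 0.06 and -1.22 ± 0.07. The place of the 6 h drug group also turned with the scaling: its deposited values lay above those of DMSO at 24 h, while its mean normalized log2 value was 11.01 against 11.33 there.

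ASF1B, the histone chaperone, had 1 array that stood apart. It read 1614, 1509 and 1684 with DMSO at 6 h against 1308, 1299 and 1215 with ICG-001. At 24 h it read 1602, 1619 and 12581 with DMSO against 778, 695 and 659.72. The value of 12581, on DMSO 24 h replicate 3, set the 24 h log2 change of -2.47 ± 0.44, which was -1.57 without that array. It also widened the spread of ASF1B in every comparison of the shared model. Over all 9554 probe sets and the 4 drug experiment groups, 3 probe sets had a value above 500 that was more than 5 times both of its fellow replicates. The coefficient of variation of ASF1B was 1.56 over the 16 arrays and 0.353 without that array, below the 0.4 that marks the table's selection.

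**Figure D3:**
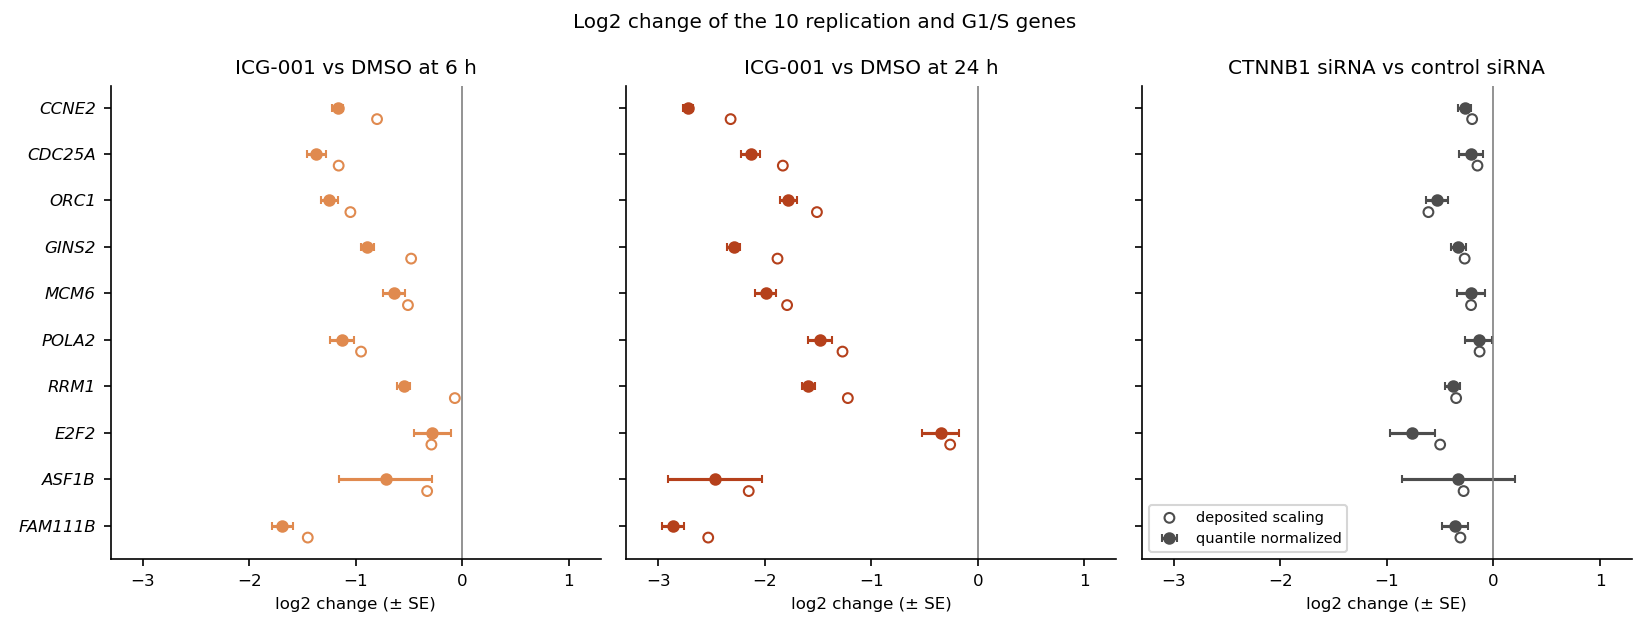
Log2 change (x axis) of the 10 genes (rows) in the drug comparisons at 6 h and 24 h and in the knockdown comparison; filled points with bars are the quantile normalized estimates ± SE, and open points are the deposited scaling. CCNE2 lies at -1.17 at 6 h and -2.72 at 24 h, E2F2 lies near the same place at both times, RRM1 at 6 h is -0.55 in one scaling and -0.07 in the other, and all knockdown estimates lie between -0.76 and -0.14.

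The difference between the drug changes at the 2 times varied among the 10 genes, and it is given as a description. The 24 h change minus the 6 h change was -1.56 ± 0.07 on the log2 scale for CCNE2, -1.40 ± 0.08 for GINS2, -1.35 ± 0.15 for MCM6, -1.17 ± 0.14 for FAM111B and -1.04 ± 0.08 for RRM1. It was -0.76 ± 0.13 for CDC25A, -0.54 ± 0.11 for ORC1, -0.35 ± 0.15 for POLA2 and -0.08 ± 0.25 for E2F2, whose value was 0.03 in the deposited scaling. Second probe sets gave -0.28 ± 0.17 for CDC25A, -0.62 ± 0.14 for FAM111B, -1.47 ± 0.11 for CCNE2 and -0.32 ± 0.39 for E2F2. ASF1B stood at -1.75 ± 0.62, and at -0.84 without DMSO 24 h replicate 3. Over all genes 3.92% had a difference below 0 past the adjusted threshold. Both drug changes share no arrays with each other, but each shares its DMSO arrays with the vehicle comparison over time.

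Vehicle cells changed as well, by less. From 6 h to 24 h in DMSO the log2 change of FAM111B was -0.63 ± 0.10, of ORC1 -0.26 ± 0.08, of CCNE2 -0.24 ± 0.05 and of RRM1 -0.23 ± 0.06. In these 4 genes all 3 arrays at 24 h lay below all 3 at 6 h, as they did for 10.2% of all genes. They are also the 4 of 10 past an adjusted p of 0.05 by limma, where 3.94% of all genes fell. The ORC1 call was marginal and was lost in 11 of 16 alternative settings, and in the deposited scaling 2 of 10 passed. CDC25A (-0.06 ± 0.09), GINS2 (-0.04 ± 0.06), MCM6 (-0.13 ± 0.10), POLA2 (-0.23 ± 0.11) and E2F2 (0.00 ± 0.17) overlapped between the times. Second probe sets gave -0.37 ± 0.12 for CDC25A, -0.47 ± 0.08 for CCNE2, -0.65 ± 0.10 for FAM111B and 0.35 ± 0.27 for E2F2. These arrays are the controls of the drug comparisons, so the values are a description.

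In the knockdown experiment the same genes were lower with CTNNB1 siRNA by small amounts. Its arrays are apart from the drug response, but normalization and the spread in the tests also drew on the drug experiment arrays. The limit to varying probe sets covered the siRNA arrays too, and the choice of genes may have drawn on their values. Of 10 genes, 5 fell at an adjusted p under 0.05 by limma and 0 rose, where 5.83% of all genes fell and 6.19% rose. On the 4 siRNA arrays alone 5 passed as well, with ASF1B (adjusted p = 0.0463) and FAM111B in place of CCNE2 and E2F2 (adjusted p = 0.408 by limma). The median log2 change of the 10 was -0.33, beside 0.01 over all genes. Both CTNNB1 siRNA arrays lay below both control arrays for 9 of 10 genes, as they did for 20.4% of all genes, and CDC25A overlapped. The level of CTNNB1 itself was not analysed here, so its loss was not checked.

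ORC1 read 209 and 182 with control siRNA and 129 and 117 with CTNNB1 siRNA. It fell by 0.53 on the log2 scale (± 0.10 SE, adjusted p = 0.000946 by limma), and its adjusted p ranged from 9.51e-05 to 0.0172 over 15 alternative settings. RRM1 read 883 and 819 against 665.46 and 665.49, and fell by 0.38 (± 0.07 SE, adjusted p = 0.000705, range 0.000531 to 0.0309 by limma). These were the genes past the threshold in each of those settings. GINS2 read 1139.95 and 1119.95 against 905 and 964 and fell by 0.33 (± 0.07 SE, adjusted p = 0.00284 by limma), with an adjusted p of up to 0.0781 among the settings.

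The other calls were less firm. CCNE2 read 971 and 1021 against 867 and 857, and fell by 0.27 (± 0.06 SE, adjusted p = 0.00921 by limma), but its adjusted p was 0.0544 in the deposited scaling, 0.136 on the 4 siRNA arrays alone and 0.0691 without control siRNA replicate 2. Its second probe set stood at -0.07 ± 0.10 (adjusted p = 0.749 by limma). E2F2 read 19.1 and 17.9 against 5.35 and 11.8, and fell by 0.76 (± 0.21 SE, adjusted p = 0.0255 by limma). Its CTNNB1 siRNA values lay under the 16 added before log2, and the change was -0.50 in the deposited scaling (adjusted p = 0.176 by limma), -1.37 with 1 added and -0.33 with 64 added. It did not pass without control siRNA replicate 1 (adjusted p = 0.0927), control siRNA replicate 2 (adjusted p = 0.0591) or CTNNB1 siRNA replicate 1 (adjusted p = 0.211 by limma). Its second probe set stood at -0.42 ± 0.34 (adjusted p = 0.508 by limma).

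The 5 genes that did not pass also had estimates below 0. FAM111B read 762 and 676 against 605 and 544, at -0.36 ± 0.12 (adjusted p = 0.0701 by limma). On the 4 siRNA arrays alone its adjusted p was 0.0474, and over 15 alternative settings it ranged from 0.0346 to 0.286. Its second probe set stood at -0.22 ± 0.12 (adjusted p = 0.291 by limma). ASF1B read 901 and 813 against 732 and 677, at -0.33 ± 0.53 (adjusted p = 0.789 by limma). Without DMSO 24 h replicate 3 in the shared model its estimate was -0.33 with an adjusted p of 0.0109 by limma, and 6 of 10 genes then passed. CDC25A stood at -0.21 ± 0.11, MCM6 at -0.21 ± 0.13 and POLA2 at -0.14 ± 0.13, with adjusted p of 0.264, 0.367 and 0.603 by limma. Fewer genes passed in the deposited scaling, where ORC1, GINS2 and RRM1 did, and 3 of 10 passed without control siRNA replicate 2.

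Of 109 listed replication and G1/S genes, 30 were measured, and 20 of these are not among the 10. Genes absent from the table are not analysed here, so the counts do not describe whole complexes. Since only varying probe sets are covered, listed genes that changed little may be missing, and the counts in the drug experiment are a description. Among the 20, 15 fell and 0 rose at 6 h with ICG-001 (8.23% of all genes fell and 5.56% rose), with a median log2 change of -0.51. At 24 h 17 fell and 0 rose (11.3% of all genes fell and 9.22% rose), with a median of -1.15. With CTNNB1 siRNA 7 fell and 0 rose (5.83% of all genes fell and 6.19% rose), with a median of -0.24. In the deposited scaling 13 of 20 fell at 6 h, 16 at 24 h and 5 with the siRNA, and 1 rose at each time of the drug experiment.

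Helicase genes among the 20 all fell with the drug. GINS3 changed by -0.57 ± 0.07 at 6 h and -1.33 ± 0.07 at 24 h, GINS4 by -0.52 ± 0.07 and -1.24 ± 0.07, and MCMBP, which binds MCM proteins, by -0.56 ± 0.05 and -1.08 ± 0.05. The adjusted p of these 6 values was at most 1.46e-05 by limma, but in the deposited scaling MCMBP at 6 h was -0.10 (adjusted p = 0.381). With CTNNB1 siRNA GINS4 fell by 0.37 (adjusted p = 0.00814) and MCMBP fell by 0.22 (adjusted p = 0.0328 by limma), while GINS3 stood at -0.04.

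At the fork, CLSPN, the checkpoint adaptor claspin, fell by 1.31 at 6 h and fell by 1.92 at 24 h (SE 0.07 each). DSCC1, a subunit of a clamp loader for cohesion, fell by 1.11 and fell by 1.73 (SE 0.06 each), and the primase subunit PRIM2 fell by 0.44 and fell by 1.11 (SE 0.10 each). With CTNNB1 siRNA CLSPN fell by 0.29 (adjusted p = 0.035) and DSCC1 fell by 0.40 (adjusted p = 0.00146 by limma). POLD3, of polymerase delta, stood at 0.41 ± 0.27 and 0.42 ± 0.27 and passed in none of the 3 comparisons.

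Chaperone and remodelling genes fell with the drug at both times. CHAF1A and CHAF1B, of the chromatin assembly factor that works with ASF1 proteins, changed by -0.61 ± 0.10 and -0.63 ± 0.13 at 6 h and by -1.31 ± 0.10 and -1.41 ± 0.13 at 24 h. HELLS, a remodeller, changed by -0.49 ± 0.14 and -1.81 ± 0.14. None of these passed with CTNNB1 siRNA, where CHAF1A stood at -0.38 ± 0.12 (adjusted p = 0.0522 by limma). Nucleotide supply genes had log2 changes between -0.65 and -0.37 at 24 h. The nucleoside transporter SLC29A1 changed by -0.53 ± 0.13 at 6 h and -0.65 ± 0.13 at 24 h. GART, of purine synthesis, fell at 24 h only (-0.49 ± 0.09), and at 6 h it rose in the deposited scaling (0.35, adjusted p = 0.00481 by limma). The thymidylate kinase DTYMK fell at 24 h (-0.37 ± 0.12, adjusted p = 0.0307) and with CTNNB1 siRNA (-0.50 ± 0.15, adjusted p = 0.0311 by limma), but not in the deposited scaling (adjusted p = 0.138 and 0.267). Its probe set was dim in the drug experiment, with mean normalized log2 values of 4.82 against 5.2 at 24 h and overlapping arrays. In the siRNA groups it stood at 11.08 against 11.58, so the 2 falls were read at very unlike levels.

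Among the G1/S regulators, E2F8, a repressive E2F, fell by 1.02 at 6 h and fell by 1.97 at 24 h (SE 0.06 each). TFDP1, the dimer partner of E2F factors, fell by 0.41 and fell by 1.66 (SE 0.06 each), and RBL1, of the RB family, fell by 0.55 and fell by 1.2 (SE 0.07 each). The 6 h value of TFDP1 was -0.11 in the deposited scaling (adjusted p = 0.376 by limma), and that of RBL1 was -0.21. E2F3 fell at both times (-0.41 ± 0.09 and -0.66 ± 0.09), E2F1 at 24 h (-0.93 ± 0.14, against -0.19 ± 0.14 at 6 h) and E2F4 at 6 h (-0.41 ± 0.10, against -0.16 ± 0.10 at 24 h). Cyclin D2, CCND2, stood at 0.05 ± 0.18 and 0.34 ± 0.18, and in the deposited scaling it rose at 24 h (0.45, adjusted p = 0.0242 by limma). With CTNNB1 siRNA E2F8 fell by 0.34 (adjusted p = 0.00695) and TFDP1 fell by 0.28 (adjusted p = 0.0278 by limma), and in the deposited scaling TFDP1 (adjusted p = 0.051) and CLSPN (adjusted p = 0.0657 by limma) missed the threshold. The 7 falls of the knockdown were 2 without control siRNA replicate 2, 4 without control siRNA replicate 1 and 4 without either CTNNB1 siRNA replicate, and 3 on the 4 siRNA arrays alone.

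**Figure D4:**
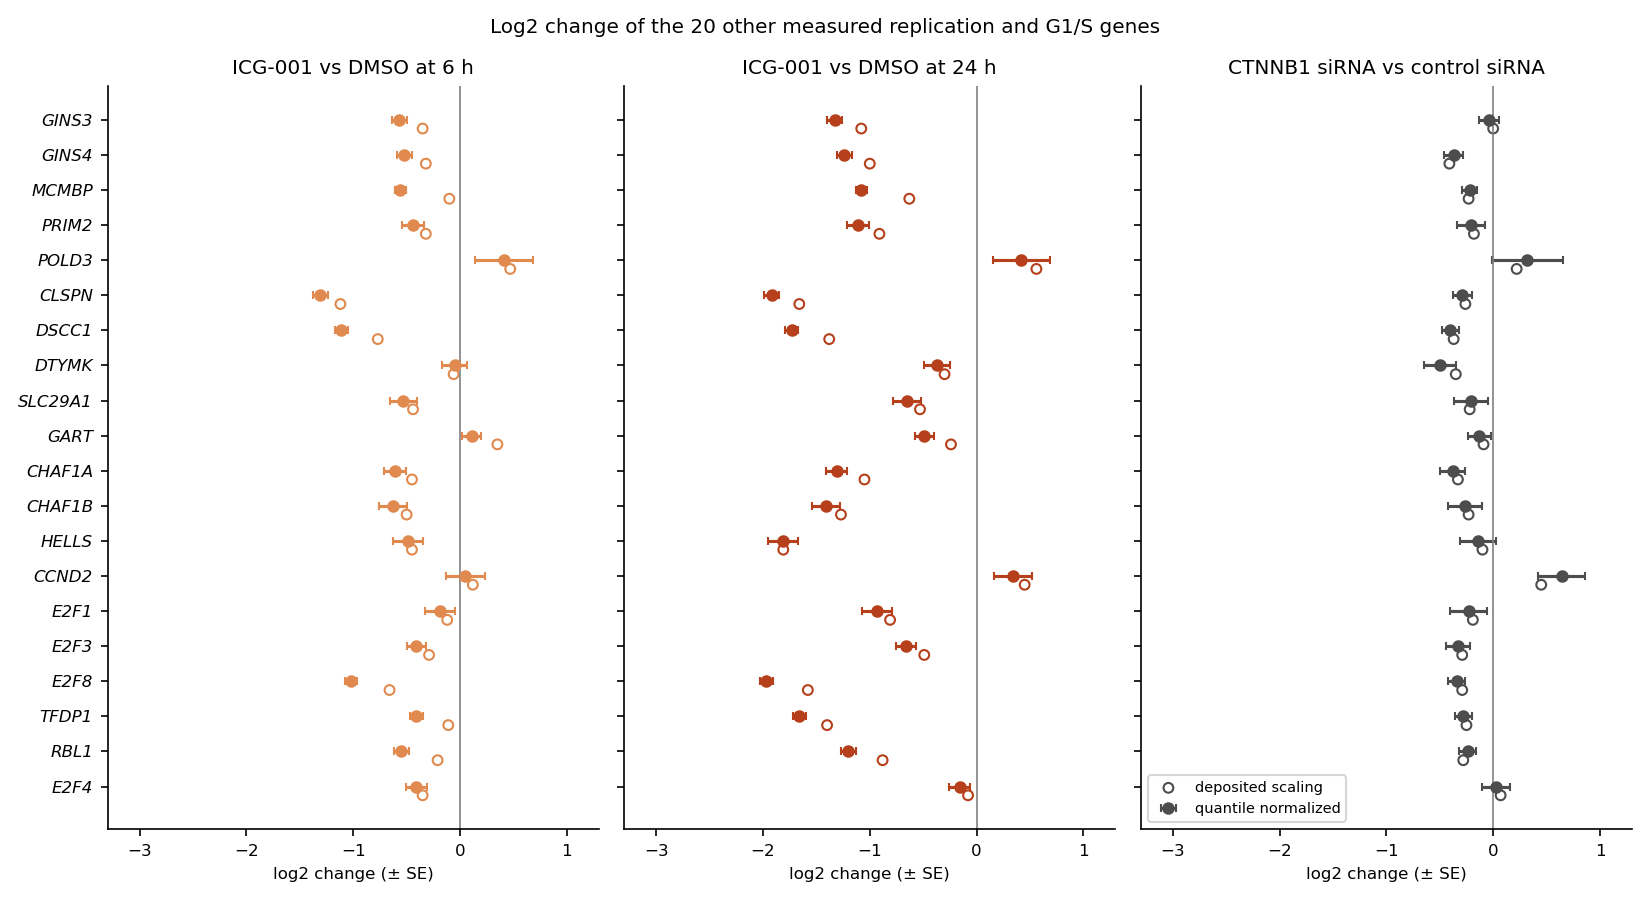
Log2 change (x axis) of the 20 other measured replication and G1/S genes (rows) with ICG-001 at 6 h and 24 h and with CTNNB1 siRNA; filled points with bars are quantile normalized estimates ± SE, and open points are the deposited scaling. At 24 h 18 of 20 estimates lie below 0, with POLD3 and CCND2 above it.

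CDK inhibitor genes, which act against the G1/S kinases, went the other way in the same arrays. Of 3 measured of 8 listed, 3 rose at 6 h, 3 at 24 h and 2 with CTNNB1 siRNA. Over all genes 5.56%, 9.22% and 6.19% rose in these comparisons. CDKN1A and CDKN2B were the ones past the test with the siRNA, at 0.52 ± 0.10 (adjusted p = 0.00181) and 0.61 ± 0.12 (adjusted p = 0.00169 by limma). CDKN1C stood at 0.35 (adjusted p = 0.0931) and passed in the deposited scaling (adjusted p = 0.0134 by limma). Of 35 mitosis genes 5 were measured, with a median log2 change of -0.54 at 6 h and -0.79 at 24 h. With CTNNB1 siRNA 0 of 5 passed (median -0.19), where 5.83% of all genes fell.

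The genes whose pattern lay nearest to the median of the 10 were found by the root mean square difference between centred log2 values over the 16 arrays. Of 5240 other genes, TCF19, a transcription factor gene, was nearest at 0.14, followed by DSCC1 at 0.21, the noncoding RNA LINC03024 at 0.22, and TMPO-AS1, KLHL4 and WDR76 at 0.23. CLSPN and TMEM97 followed at 0.24, and the median of the 5240 was 0.84. DSCC1 and CLSPN were on the replication lists, and the other 6 were not. Among the 10 themselves GINS2 was nearest to their median at 0.14 and POLA2 followed at 0.22, while FAM111B (0.74), ASF1B (0.70) and E2F2 (0.62) were farthest. TCF19 fell by 0.98 at 6 h and fell by 1.97 at 24 h (SE 0.08 each), and with CTNNB1 siRNA it stood at 0.03 ± 0.09 (adjusted p = 0.915 by limma). TMEM97, an endoplasmic reticulum membrane protein, changed by -0.88 and -2.02 (SE 0.09 each) with the drug, and by -1.05 ± 0.11 with CTNNB1 siRNA.

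**Figure D5:**
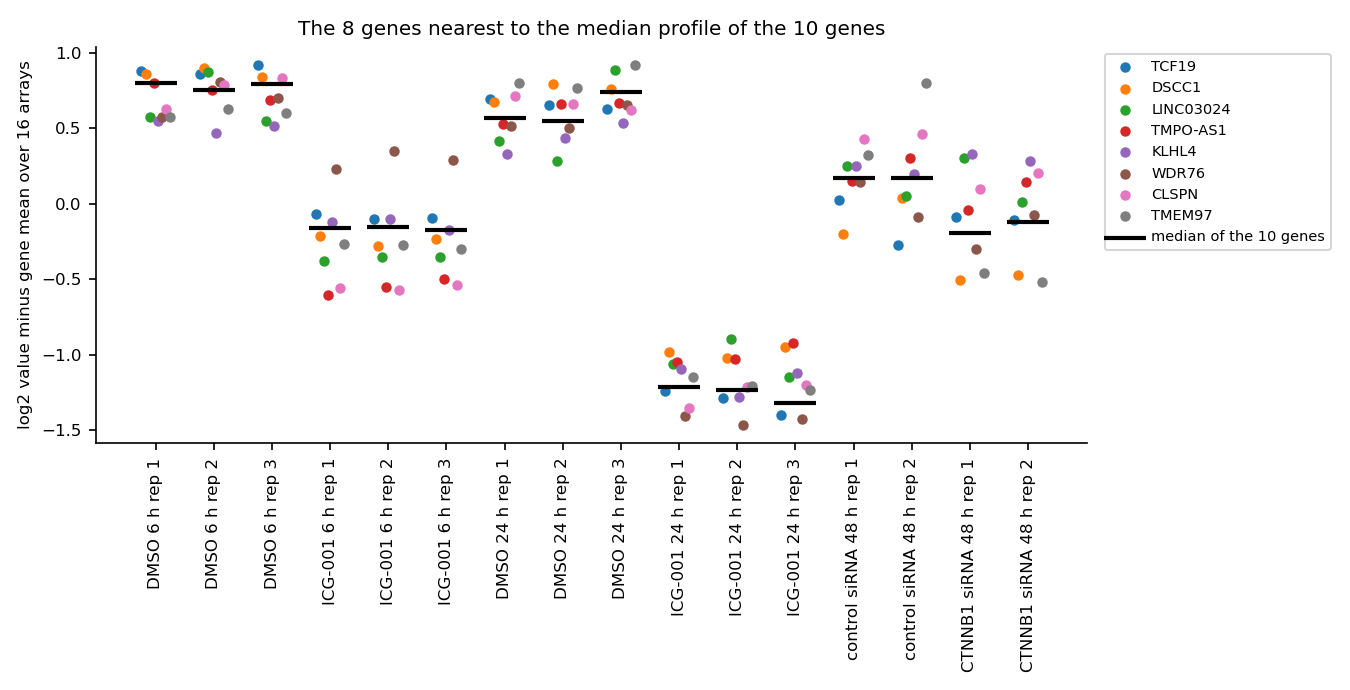
Log2 value minus the gene's mean over 16 arrays (y axis) on each array (x axis) for the 8 nearest genes (points) and the median of the 10 replication and G1/S genes (bars). The genes were picked for this likeness: the bars are highest in the DMSO arrays and lowest in the ICG-001 arrays at 24 h.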

How the data were processed

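RNA of AsPC-1 cells was read on 16 Affymetrix arrays. Each array has 1 deposited intensity (linear, never log) for every probe set. The method of probe summary and array scaling is not given in the sources used here. Among 9554 probe sets, 6442 had 1 gene in the platform annotation, 252 several and 2860 none, and those with 1 gene were used. For each comparison log2(intensity + 16) was quantile normalized over the 16 arrays, and the probe set with the highest mean was kept for each of 5250 genes. The 6 group means were estimated together (limma 3.58.1, R 4.3.3), leaving 10 residual degrees of freedom, and variances were moderated along mean intensity. P-values are two-sided and adjusted by Benjamini-Hochberg over the 5250 genes. Fold changes are on the log2(value + 16) scale. No arrays held identical values, and the fit was tested on simulated data. All 10 genes are named, with listed genes past the threshold and the 8 genes of nearest pattern. The genes and lists were chosen with earlier results of these data known. Alternatives tried were other scalings, other added numbers, probe set choice, a filter on low values, fewer arrays, no trend, a replicate block and leaving out each array.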

Additional observations from a re-analysis of the deposited data

Results flagged for a closer look

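The effect of ICG-001 differed between 24 h and 6 h, by the test of the difference in the shared limma model, in 14 of the 20 other measured replication and G1/S genes, and all 14 differences ran toward lower values at 24 h (3.92% of all genes differed in that direction). The 24 h effect minus the 6 h effect on the log2 scale was -0.76 for GINS3, -0.71 for GINS4 and -0.52 for MCMBP among the helicase genes. It was -0.67 for PRIM2, -0.62 for CLSPN and -0.62 for DSCC1 at the fork, and -0.60 for GART. Among chaperone and remodelling genes it was -0.70 for CHAF1A, -0.78 for CHAF1B and -1.32 for HELLS. Among G1/S regulators it was -0.74 for E2F1, -0.96 for E2F8, -1.25 for TFDP1 and -0.64 for RBL1. The 10 genes of the report are left out, having been chosen on the drug response. The 20 are not free of selection either. Only probe sets that vary over these arrays are covered, and the lists were chosen with earlier results known. The count of 14 is therefore a description of these 20 genes.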

How the results depend on the processing

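Of 1030 re-estimated log2 changes of the 10 genes, 989 stayed on their side of the threshold, 31 lost a call, 10 gained one and 0 called changes reversed. Most of these belong to the drug experiment. In the knockdown, where the genes were tested, 131 of 150 stayed, 14 lost a call and 5 gained one. With CTNNB1 siRNA the 5 called genes became 3 in the deposited scaling, 2 with arrays centred on their medians and 3 without the intensity trend, and ranged from 3 to 6 when 1 array was left out, the 6 being without DMSO 24 h replicate 3, a setting added after seeing the data. In DMSO over time 4 called genes became 2, 2 and 1 in those settings and ranged from 3 to 4. At 6 h and 24 h with ICG-001 counts stayed at 7 to 9 and at 9. Same-numbered arrays did not deviate together (correlations of -0.04 to 0.09 across genes), and the replicate block gave 6 called genes with CTNNB1 siRNA, where FAM111B joined, and 8, 9 and 3 in the other comparisons. Over all genes, 306 falls and 325 rises with CTNNB1 siRNA were 154 and 150 on the siRNA arrays alone, and falls were 182 with median centring. Falls at 6 h were 222 with median centring, and the 592 falls and 484 rises at 24 h were 385 and 740 in the deposited scaling. Of the other replication genes, the 7 that fell with CTNNB1 siRNA were 2 with median centring, 3 without the trend and 3 on the siRNA arrays alone. The causes were not tested.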
